A study of Mus musculus with 4 samples.

Results

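Reads in introns were compared between CMT64 cells with and without TGF-β. All 4 RNA-seq libraries came from CMT64, an established carcinoma line of mouse lung. The libraries with TGF-β were made from cells kept for 24 h with 5 ng/ml of TGF-β1 alone, or with 5 ng/ml of TGF-β1 and 10 ng/ml of TNF-α (both cytokines). The libraries without TGF-β were made from untreated cells (the negative control, no cytokine) and from cells given 10 ng/ml of TNF-α alone. Genes were taken by read number only, with at least 50 intron reads and at least 100 exon reads summed over the 4 libraries, and 11324 of the 25704 listed genes met this minimum. Each treatment had 1 library, so the libraries of a group are not replicate cultures, and the p-values given here rest on how far the effects of TGF-β and TNF-α departed from additivity.

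Most reads of a poly(A)-selected library come from spliced mRNA, and those within introns come from transcripts that are not yet spliced, from introns that stay in the mRNA, and from other transcripts lying in the intron. Introns are usually removed and broken down soon after they are made, whereas an mRNA can last for hours, so intron reads are commonly read as closer to ongoing transcription and exon reads as closer to the store of mRNA. TGF-β signals through receptor kinases and Smad proteins, and in lung carcinoma cells it is known to drive epithelial-mesenchymal transition (EMT). RNA was enriched with oligo(dT) beads, and the sources used here do not say whether strand entered the counting, so reads from a gene and from a transcript on the other strand cannot be told apart.

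The genes meeting the minimum held 97.2% of all intron reads, with a median of 1097 intron reads and 10226 exon reads per gene over the 4 libraries. There were 36 genes with 50 to 52 intron reads just inside the minimum, and 30 genes with enough exon reads had 47 to 49 intron reads and stayed outside. A gene could meet the minimum through the libraries of a single group, as several genes named below did. Of the 11324 genes, 2487 overlapped another listed gene with at least 100 exon reads, and 4109 overlapped an exon of a GENCODE gene that the tables do not list. The 4 libraries had 75358896 to 81245906 mapped reads and 4910493 to 6676932 intron reads, of which 84.8% to 87.4% mapped uniquely. Of 6 epithelial markers, 4 had at least 100 exon reads in every library, and their sum was 4531 RPM (exon reads scaled to mapped reads) with TGF-β and 4113 with both cytokines, against 7291 in untreated cells and 6256 with TNF-α. Only 1 of 7 markers of lung epithelium had 100 reads in each library with TGF-β, against 2 in each library without it, and their sum was 1.71 to 5.27 RPM. None of 14 markers of fibroblasts, endothelial cells and haematopoietic cells had 100 reads, and each of these lists summed to less than 0.5 RPM in every library.

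Introns took 8.50% of gene reads with TGF-β and 8.17% with both cytokines, against 6.72% in untreated cells and 8.16% with TNF-α. The mean was 8.33% ± 0.23 with TGF-β and 7.44% ± 1.01 without it (SD, n = 2 each), a difference of 0.89 percentage points that was smaller than the SD of the libraries without TGF-β. An exact permutation test gave p = 0.333 (two-sided), the smallest p that 2 libraries against 2 allow. The difference was 1.77 points between TGF-β and untreated cells but 0.014 points between both cytokines and TNF-α, and the untreated library was the only library below 8%. Without the untreated library the difference fell to 0.18 points. Without the 10 genes with most intron reads, the share was 7.98% with TGF-β and 7.65% with both cytokines. It was then 6.16% in untreated cells and 7.41% with TNF-α, so the small gap between both cytokines and TNF-α depends in part on these genes.

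**Figure D1:**
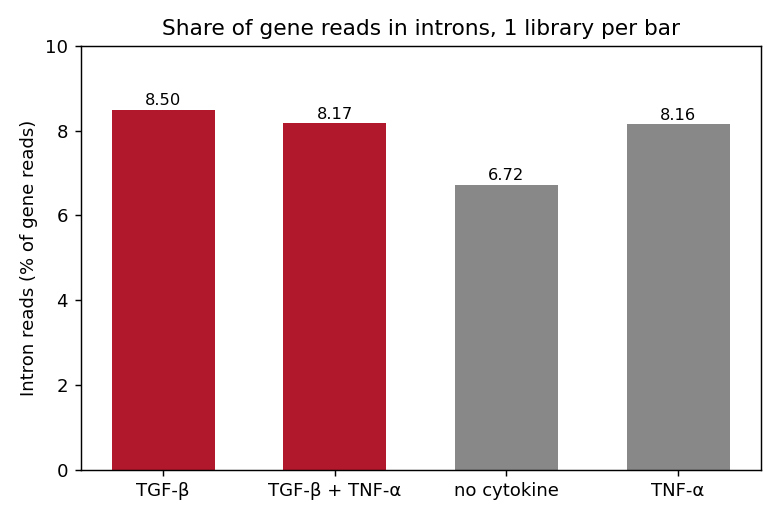
Share of gene reads (exon and intron reads of all listed genes) that fell in introns, in percent, with 1 library per bar and no error bar because each treatment had 1 library. Both libraries with TGF-β (red, 8.50% and 8.17%) stand close to the TNF-α library (8.16%), and the untreated library is lower at 6.72%.

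The same split appeared gene by gene. The median log2 fold of intron reads per mapped read was 0.44 for TGF-β over untreated cells and 0.09 for both cytokines over TNF-α, while the median exon fold was 0.08 and 0.06 in these comparisons. The median difference between the intron and the exon fold of a gene was 0.36 for TGF-β over untreated cells and 0.03 for both cytokines over TNF-α, and TNF-α over untreated cells, which holds no TGF-β, had a median intron fold of 0.28. Across 11320 genes, Spearman's correlation between intron fold and transcript GC content was -0.34 for TGF-β over untreated cells, -0.48 for TNF-α over untreated cells and -0.07 for both cytokines over TNF-α. For exon folds it was -0.30 for TGF-β over untreated cells and 0.01 for both cytokines over TNF-α. These correlations share libraries and are given as descriptions. Base composition therefore moved with the untreated library, and its part in the shift of introns was not tested.

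Intron length moved with the untreated library too. From the fifth of genes with the shortest summed introns (up to 6.94 kb) to the fifth with the longest (from 64.9 kb), the median log2 intron fold of TGF-β over untreated cells was 0.11, 0.35, 0.50, 0.59 and 0.58. In the same order it was 0.07, 0.06, 0.09, 0.10 and 0.11 for both cytokines over TNF-α. The exon folds of the same genes ranged from -0.14 in the shortest class to 0.31 in the longest for TGF-β over untreated cells, and from 0.03 to 0.10 for both cytokines over TNF-α. A general rise of introns over exons was thus measured against untreated cells and was close to 0 in the pair that leaves the untreated library out.

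**Figure D2:**
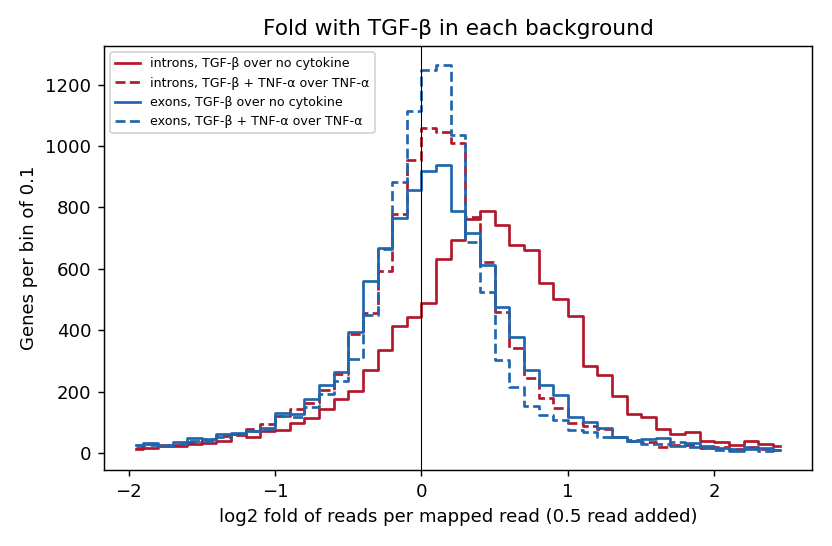
Number of genes per bin of 0.1 against the log2 fold of reads per mapped read (0.5 read added) for 11324 genes, folds beyond the axis left out. Intron folds (red) of TGF-β over untreated cells (solid) are shifted to a median of 0.44, while those of both cytokines over TNF-α (dashed, median 0.09) lie near the exon folds (blue, medians 0.08 and 0.06).

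For the test, edgeR models holding a term for each cytokine were fitted over the 4 libraries to introns, to exons and to the difference between them. A gene is called, and its reads rose, fell or differed, where its Benjamini-Hochberg adjusted p from edgeR's quasi-likelihood test was under 0.05. Introns rose for 1416 genes (12.5% of those tested) and fell for 622 (5.49%). Exons rose for 2563 (22.6%) and fell for 1922 (17.0%). The intron fold lay above the exon fold for 329 genes (2.91%) and below it for 135 (1.19%). Log2 folds of the fit are relative to mapped reads and have a median of 0.27 in introns, 0.07 in exons and 0.20 for the difference. Scaling each read class by TMM, which takes these medians to 0.01, 0.01 and 0.01, gave 1446 rises and 1593 falls in introns, 2162 and 2281 in exons, and 679 differences above and 623 below 0. The share of rises among intron calls was 69.5% against 47.6% under TMM, so the split by direction depends on the scaling. Of the 464 genes called for the difference, 459 were called in the same direction under TMM, which called 1302 in all.

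Counts also moved with single libraries. With TGF-β as the only term, introns were called for 2135 genes over the full set, 893 when TGF-β alone was left out, 896 when both cytokines was, 3401 when the untreated library was and 6320 when TNF-α alone was. In this order exons were called for 4335, 2667, 2627, 5505 and 6798 genes, and the difference for 1034, 176, 169, 1216 and 4224. The high counts without the TNF-α library compare both libraries with TGF-β with the untreated library alone.

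Introns and exons mostly moved the same way. Of the 1758 genes called in both fits, 1167 rose and 580 fell in both, and 11 moved in opposite directions. Both folds come from the same libraries, so the pairs without a shared library were set beside each other. Across 11324 genes, Spearman's correlation was 0.60 between the intron fold of TGF-β over untreated cells and the exon fold of both cytokines over TNF-α, and 0.64 for the reverse pair, against 0.76 and 0.69 within the same libraries. For 69.1% and 70.5% of the genes in the pairs without a shared library, both folds lay on the same side of their medians. Exons alone were called for 2727 genes, and for 2550 of them the difference from the intron fold was not called. Introns alone were called for 280 genes, with 216 of them not called for the difference.

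Where exon folds were large, those of introns were mostly smaller. Among the genes that rose in both fits, 249 had an exon fold over 4, and in 196 of them the intron fold was smaller, with a median log2 fold of 2.72 in introns and 3.56 in exons. Among those that fell in both, 235 had exons more than 4-fold lower and 196 of them had a smaller intron change, with medians of -2.20 in introns and -3.11 in exons. These genes were chosen by their exon fold, so the counts describe them and carry no test. The difference itself was called for 173 of the 1747 genes with the same direction. Exons changed more than introns in 70 of those that rose and in 72 of those that fell, and introns changed more in 28 and 3.

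**Figure D3:**
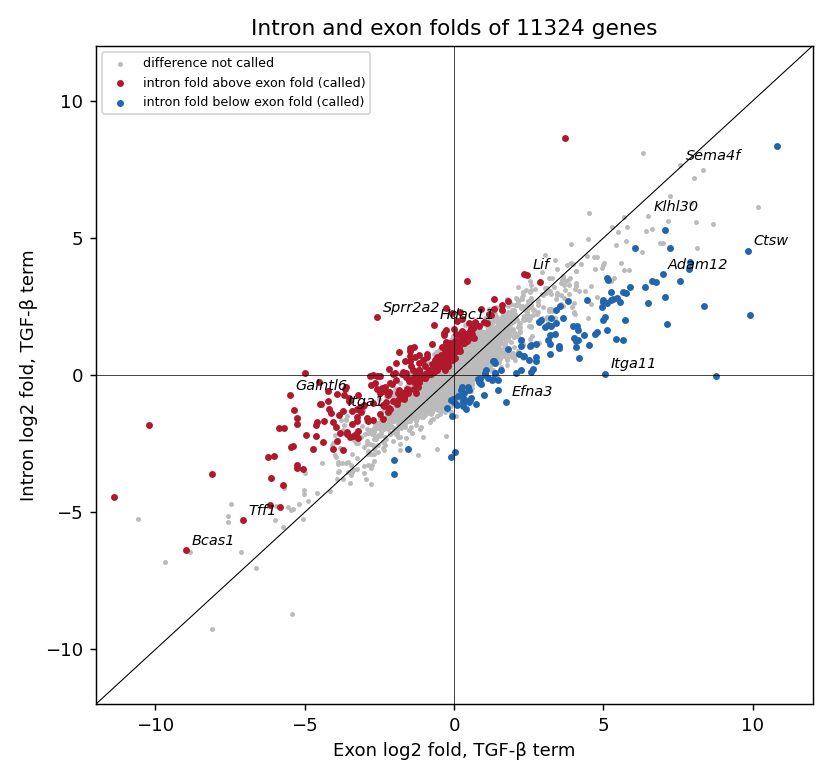
Log2 fold of the TGF-β term in introns (vertical) against that in exons (horizontal) for 11324 genes, with the line of equal folds. Genes called for the difference are red where the intron fold is the higher (329) and blue where it is the lower (135), and most large exon changes lie on the flatter side of the line, with Sema4f on it and Ctsw, Itga11 and Adam12 far below it. Fitted folds of genes with 0 reads in a group depend on the prior count.

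The genes with the highest intron folds had few intron reads without TGF-β. Sema4f, a membrane semaphorin on chromosome 6 (82911885 to 82939769, minus strand, mm10), had 1696 intron reads with TGF-β and 1566 with both cytokines, against 3 in untreated cells and 13 with TNF-α. Its exons had 5964 and 6057 reads with TGF-β and both cytokines, against 20 in untreated cells and 42 with TNF-α. The log2 folds were 7.64 ± 0.44 in introns and 7.58 ± 0.22 in exons (fold ± standard error), with adjusted p = 2.4e-64 and 7.8e-236 from edgeR, and differed by 0.07 ± 0.42.

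Wisp1, a matricellular protein of the CCN family, had 730 intron reads with TGF-β and 610 with both cytokines, against 4 in untreated cells and 3 with TNF-α, and log2 folds of 7.49 in introns and 8.32 in exons. Klhl30, a kelch-like gene, had 577 and 519 intron reads with TGF-β and both cytokines, against 12 in untreated cells and 7 with TNF-α (log2 folds of 5.80 in introns and 6.50 in exons). Agxt, an aminotransferase of glyoxylate metabolism known from liver, had more intron than exon reads in all 4 libraries. It had 647 intron reads with TGF-β and 556 with both cytokines, against 2 in untreated cells and 2 with TNF-α, and no more than 52 exon reads in any library. Both libraries with TGF-β lay above both without it for each of these genes. They were chosen by their intron fold and its direction in both comparisons, so this separation carries no test. They met the minimum of 50 intron reads only through the libraries with TGF-β, and Agxt also that of 100 exon reads.

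For several other genes the libraries without TGF-β held 3 intron reads or fewer, so a ratio of the summed reads is given with a 95% counting interval in place of the fitted fold. These genes too met the intron minimum only through the libraries with TGF-β. Has2, a synthase of hyaluronan, had 144 intron reads with TGF-β and 96 with both cytokines, against 0 in untreated cells and 3 with TNF-α, a ratio of 77.8 (26.3 to 380). The ratio in its exons was 1256 (429 to 6092), and an unlisted antisense transcript, Has2os, overlaps it. Tarm1, a receptor of the leukocyte receptor cluster, had a ratio of 158 (53.7 to 768) in introns, Siglecg, a sialic acid-binding lectin, 95.3 (16.7 to 3804), and Serpinb9e, a serine protease inhibitor, 115 (20.2 to 4572). Csf2, the cytokine GM-CSF, had 39 intron reads with TGF-β and 60 with both cytokines, against 0 in untreated cells and 0 with TNF-α, at least 32.1-fold higher with the absent group set to 3 reads over its libraries. Its exons had 228 and 317 reads with TGF-β and both cytokines, against 14 in untreated cells and 27 with TNF-α. The intron call of Csf2 was lost in DESeq2 (adjusted p = 0.22), and that of its difference from exons (adjusted p = 0.048, edgeR) in each fit with 1 library left out. The unlisted Gm12223 overlaps it.

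Promoters of the genes with the highest intron folds are shown on the assumption, not tested here, that intron reads reflect transcription from them. In Agxt introns held 92.8% of gene reads with TGF-β and 91.4% with both cytokines, and where these transcripts start is not known. Of the 10 genes, 6 matched a promoter in RefSeq (GRCm38.p6, 250 bases before to 50 bases after the start). The motifs searched on both strands were the Smad box CAGAC, the AP-1 site TGANTCA and the Tead site GGAATG, none overlapping another in these promoters. The Smad box was in 3 of the 6, those of Csf2, Agxt and Sema4f, and in 49.6% of all 32851 promoters of this length. The Tead site was in 1, that of Csf2, and in 14.7% of all, and the AP-1 letters were in none of the 6 and in 7.81% of all. Sema4f (chr6:82939720-82940019, minus strand) and Agxt (chr1:93134990-93135289, plus strand) are printed 5′ to 3′ with the Smad box, read on either strand, in capitals.
Sema4f: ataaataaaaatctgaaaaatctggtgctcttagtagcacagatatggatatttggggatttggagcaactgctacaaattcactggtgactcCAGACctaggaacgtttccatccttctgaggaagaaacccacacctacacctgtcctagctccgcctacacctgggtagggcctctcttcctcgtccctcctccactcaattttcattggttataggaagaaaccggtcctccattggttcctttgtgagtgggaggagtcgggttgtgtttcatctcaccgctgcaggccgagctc
Agxt: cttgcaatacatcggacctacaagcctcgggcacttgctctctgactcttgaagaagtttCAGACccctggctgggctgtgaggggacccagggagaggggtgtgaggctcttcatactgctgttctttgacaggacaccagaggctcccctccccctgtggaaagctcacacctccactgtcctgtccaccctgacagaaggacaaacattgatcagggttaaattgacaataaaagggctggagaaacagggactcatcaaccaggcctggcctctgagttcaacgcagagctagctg

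The genes with the lowest intron folds had almost no intron reads left with TGF-β. Igfbp5, a binding protein of insulin-like growth factors, had 1 intron read with TGF-β and 5 with both cytokines, against 393 in untreated cells and 299 with TNF-α. Its log2 fold was -6.82 ± 0.47 in introns (adjusted p = 3.2e-43, edgeR) and -9.69 ± 0.22 in exons, and the difference was not called (adjusted p = 0.059, edgeR). Bcas1, a gene first described in breast carcinoma, had 27 and 20 intron reads with TGF-β and both cytokines, against 1807 in untreated cells and 2017 with TNF-α. Its log2 fold was -6.38 ± 0.38 in introns and -8.97 ± 0.23 in exons, and the difference of 2.63 ± 0.43 was called (adjusted p = 1.7e-07, edgeR). Transcripts not in the tables, Bcas1os1 and Bcas1os2, overlap it. Tff1, a trefoil peptide of mucous epithelia, had 51 intron reads with TGF-β and 21 with both cytokines, against 1364 in untreated cells and 1239 with TNF-α. Log2 folds were -5.28 in introns and -7.08 in exons, again with a called difference (1.84 ± 0.32, adjusted p = 1.8e-06, edgeR).

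For the other low genes the difference between introns and exons was not called. Arhgap40, a GTPase-activating protein, had log2 folds of -5.53 in introns and -5.74 in exons, and the interferon-inducible GTPase Mx1 -5.28 and -6.01. Acaa1b, a peroxisomal thiolase, had -5.24 and -5.06. Lrrc26, a subunit of potassium channels, had 0 intron reads with TGF-β and 0 with both cytokines, against 95 in untreated cells and 54 with TNF-α, at least 51.1-fold lower. Of its 1266 bases 1190 are exon, so its intron is very short, and how far its intron reads reach into exons was not tested. Cbln3, a secreted protein of the cerebellin family, was at 0 in both libraries with TGF-β, against 46 in untreated cells and 57 with TNF-α, at least 35.3-fold lower. Gjb1, a connexin, had 1 intron read over the libraries with TGF-β and a ratio of 0.00935 (0.000235 to 0.0533), and the cytochrome Cyp4a12b, also with 1 read, 0.00918 (0.00023 to 0.0523). The paralog Cyp4a12a is nearly identical to Cyp4a12b, and reads may be split between them. Lrrc26, Cbln3, Gjb1 and Cyp4a12b met the intron minimum only through the libraries without TGF-β, as did Igfbp5, Bcas1, Arhgap40 and Acaa1b. The genes with the lowest intron folds were chosen by that fold and its direction in both comparisons, so their separation carries no test. The call of Lrrc26 was lost in DESeq2 (adjusted p = 0.16).

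Some genes had a far higher fold in exons than in introns. They were chosen by this difference and its direction in both comparisons, so the gap between introns and exons carries no test. Itga11, the integrin chain that binds collagen with β1, had 139 intron reads with TGF-β and 87 with both cytokines, against 95 in untreated cells and 114 with TNF-α. Its exons had 623 reads with TGF-β and 684 with both cytokines, against 18 in untreated cells and 20 with TNF-α. The groups overlapped in introns (log2 fold 0.05 ± 0.33, adjusted p = 0.94, edgeR) and stood apart in exons (5.06 ± 0.29), a difference of -5.03 ± 0.40 (adjusted p = 1.9e-32, edgeR). Ctsw, a cysteine protease known from cytotoxic lymphocytes, had 796 and 790 intron reads with TGF-β and both cytokines, against 29 in untreated cells and 38 with TNF-α. Its log2 fold was 4.53 ± 0.36 in introns and 9.84 ± 0.27 in exons.

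Fgfr1, a receptor of fibroblast growth factors, had 56 intron reads with TGF-β and 65 with both cytokines, against 22 in untreated cells and 11 with TNF-α, and 647 and 687 exon reads with TGF-β and both cytokines, against 8 in untreated cells and 1 with TNF-α. The log2 fold was 1.85 ± 0.46 in introns and 7.13 ± 0.35 in exons. Kif26b, a kinesin-like protein, had 1.27 in introns and 5.66 in exons, and Wfdc8, a whey acidic protein-type gene, 2.51 in introns with an exon ratio of 412 (73.5 to 16292). Aldh1a2, which makes retinoic acid, had 109 exon reads with TGF-β and 132 with both cytokines, against 0 in both libraries without TGF-β, at least 78.2-fold higher, while its intron reads were 22 with TGF-β and 25 with both cytokines, against 8 in untreated cells and 2 with TNF-α. Ass1, the argininosuccinate synthase, had 2.83 in introns and 7.07 in exons on the log2 scale. Itga11, Fgfr1, Kif26b, Wfdc8, Aldh1a2 and Ass1 met the minimum of 100 exon reads only through the libraries with TGF-β. Without these libraries Fgfr1, Wfdc8, Aldh1a2 and Ass1 would also stay under 50 intron reads. The differences of Aldh1a2 and Ass1 were not called without the untreated library (adjusted p = 0.11 and 0.54, edgeR).

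The reverse pattern, a strong loss in exons with a smaller change in introns, was led by genes with few exon reads left in both libraries with TGF-β. They too were chosen by the difference and its direction in both comparisons, so the gap carries no test. Galntl6, Pglyrp1, Pde7b, Oit1 and Cyp2c65 met the minimum of 100 exon reads only through the libraries without TGF-β. Galntl6, a glycosyltransferase-like gene, had 66 intron reads with TGF-β and 69 with both cytokines, against 110 in untreated cells and 110 with TNF-α. Its exons had 12 reads with TGF-β and 3 with both cytokines, against 374 in untreated cells and 273 with TNF-α. The log2 fold was -0.74 ± 0.35 in introns (adjusted p = 0.12, edgeR) and -5.50 ± 0.38 in exons, a difference of 4.77 ± 0.50 (adjusted p = 1.3e-18, edgeR). Pglyrp1, a peptidoglycan recognition protein, had 69 and 66 intron reads with TGF-β and both cytokines, against 61 in untreated cells and 98 with TNF-α, with a log2 fold of -0.24 in introns and -4.51 in exons.

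Oit1 had 24 intron reads with TGF-β and 14 with both cytokines, against 72 in untreated cells and 58 with TNF-α. Its exons had 0 reads in both libraries with TGF-β, against 170 in untreated cells and 120 with TNF-α, at least 99.4-fold lower. Muc4, a membrane mucin, had log2 folds of -3.59 in introns and -8.12 in exons, and Pde7b, a phosphodiesterase of cyclic AMP, -1.29 and -5.36. Cyp2c65, a cytochrome of fatty acid metabolism, had 0 exon reads in both libraries with TGF-β, at least 224-fold lower, and an intron ratio of 0.0417 (0.0084 to 0.127). The call of Cyp2c65 was lost without either library with TGF-β, and that of Muc4 without the TGF-β library.

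In 11 genes introns and exons moved in opposite directions, and those named here were chosen after their values were seen. Introns rose while exons fell in 5 genes. Hdac11, a histone deacetylase on chromosome 6 (91156665 to 91174692, plus strand, mm10), had 1427 intron reads with TGF-β and 1319 with both cytokines, against 321 in untreated cells and 431 with TNF-α. Its exons had 1112 reads with TGF-β and 900 with both cytokines, against 1683 in untreated cells and 1402 with TNF-α. The log2 folds of 1.84 ± 0.30 in introns and -0.66 ± 0.15 in exons differed by 2.50 ± 0.26 (adjusted p = 1.3e-18, edgeR). B9d1, a protein of the ciliary transition zone, had 1.12 in introns and -0.75 in exons. Cav2, a caveolin, had 1.02 and -0.41, and Sprr2a2, a precursor of the cornified envelope from a family of near-identical copies, 2.12 and -2.58. The unlisted Gm14573 overlaps Hdac11, and the unlisted Gm5850 overlaps Sprr2a2.

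Introns fell while exons rose in the other 6. Depdc5, a subunit of the GATOR1 complex that restrains mTORC1, had 8123 intron reads with TGF-β and 7700 with both cytokines, against 15767 in untreated cells and 14710 with TNF-α. Its exons had 4253 and 3998 reads with TGF-β and both cytokines, against 2772 in untreated cells and 2895 with TNF-α, giving log2 folds of -0.98 ± 0.23 and 0.50 ± 0.15. Chd9, a chromatin remodeller, had 5411 intron reads with TGF-β and 4484 with both cytokines, against 9315 in untreated cells and 9143 with TNF-α, while its exon reads overlapped between the groups (2930 and 2432 with TGF-β and both cytokines, against 1560 in untreated cells and 2627 with TNF-α). Efna3, an ephrin, had -0.97 in introns and 1.75 in exons. Tcf7l1, a repressor of Wnt target genes, had -0.91 and 0.55, C1ra, a complement protease, -1.06 and 0.75, and Yif1b, a protein of Golgi transport that overlaps another listed gene, -0.74 and 1.02. Unlisted transcripts overlap Depdc5 (Gm24003), Chd9 (Gm45641), Efna3 (Gm15998) and Tcf7l1 (Gm15401 and Gm15402). Reads from these transcripts and from the introns of the gene cannot be told apart. Of the 11, 10 had the same 2 signs in both comparisons, and the exon fold of Chd9 was 0.80 for TGF-β over untreated cells and -0.08 for both cytokines over TNF-α. Under TMM the intron rise of Cav2 (adjusted p = 0.068) and the exon rise of Chd9 (adjusted p = 0.115) were not called by edgeR. Without either library with TGF-β, 3 or 2 genes were called in opposite directions, against 54 without the untreated and 229 without the TNF-α library.

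**Figure D4:**
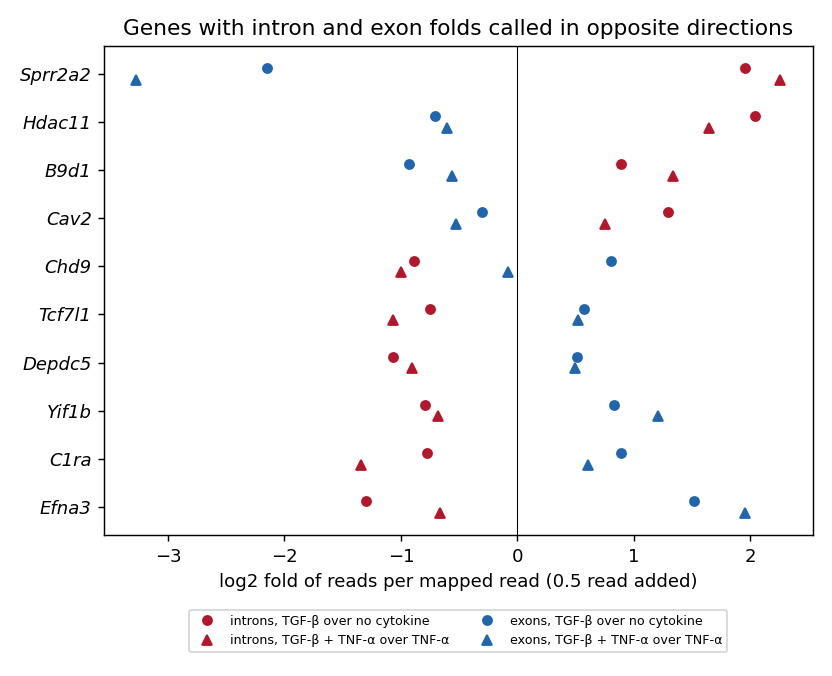
Log2 fold of reads per mapped read (0.5 read added) in introns (red) and exons (blue) of 10 of the 11 genes called in opposite directions, for TGF-β over untreated cells (circles) and for both cytokines over TNF-α (triangles), without error bars because each point compares 2 libraries. Intron folds of Hdac11 (2.04 and 1.64) lie right of 0 with exon folds (-0.71 and -0.61) left of it, and Depdc5 shows the reverse (-1.06 and -0.90 against 0.51 and 0.50).

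Most genes of the TGF-β pathway itself rose in introns and in exons. Of 30 members of the list of ligands, receptors and feedback genes, introns rose in 18 and fell in 2, and exons rose in 19 and fell in 4, with median log2 folds of 0.97 in introns and 0.76 in exons against 0.27 and 0.07 over all genes. The shares over all genes tested, to be set beside the counts of every list, were 12.5% rises and 5.49% falls in introns. In exons they were 22.6% and 17.0%. For the difference they were 2.91% above 0 and 1.19% below 0. Smad7, the inhibitory Smad, had 1706 intron reads with TGF-β and 1443 with both cytokines, against 505 in untreated cells and 692 with TNF-α, and log2 folds of 1.37 ± 0.29 in introns and 1.26 ± 0.15 in exons. Fstl3, which binds activin, had 3.48 and 3.83, Inhba, the chain of activin A, 2.99 and 3.08, and Id3, an inhibitor of helix-loop-helix factors, -3.32 and -3.02. Ltbp2, a latent TGF-β binding protein, had log2 folds of 2.73 ± 0.33 in introns and 4.47 ± 0.18 in exons, a difference of -1.73 ± 0.30 (adjusted p = 1.6e-06, edgeR), the only member with the difference called below 0. Introns rose in 9 members without the TGF-β library, and the difference was positive in 14 without the TNF-α library against 1 in the full fit.

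Among extracellular matrix genes the largest changes were larger in exons than in introns. Of 31 members, introns rose in 16 and fell in none, exons rose in 21 and fell in 6, and the median difference was -0.18 against 0.20 over all genes. The difference was called below 0 in 4 and above 0 in 2, beside 1.19% and 2.91% of all genes tested. Col7a1, the chain of anchoring fibrils, had 1871 intron reads with TGF-β and 1717 with both cytokines, against 49 in untreated cells and 40 with TNF-α, and log2 folds of 5.29 ± 0.36 in introns and 7.07 ± 0.18 in exons. Col7a1, Col12a1 (3.20 in introns and 6.41 in exons) and the metalloprotease Adam12 (3.69 and 6.99) were among the 4 members with the difference called below 0. Col1a1, the chain of type I collagen, had 4.29 and 4.67, and Col5a1 5.26 and 6.42. Introns outran exons in Fn1 and Lamb1. Fn1 (fibronectin) had 8925 intron reads with TGF-β and 7711 with both cytokines, against 619 in untreated cells and 945 with TNF-α, with log2 folds of 3.40 and 2.86, but its difference of 0.54 was not called under TMM (adjusted p = 0.14, edgeR). Under TMM the difference was below 0 in 11 members and above 0 in 2. It was above 0 in 0 members without either library with TGF-β and in 7 without the TNF-α library, and below 0 in 8 without the untreated library.

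Secreted ligands had the highest median of the lists in introns, 1.56, with 1.18 in exons. Of 26 members, introns rose in 14 and fell in 4, and exons rose in 17 and fell in 4. Il11, which acts through gp130 as interleukin-6 does, had 759 intron reads with TGF-β and 802 with both cytokines, against 79 in untreated cells and 64 with TNF-α. Its exons had 2770 and 3339 reads with TGF-β and both cytokines, against 31 in untreated cells and 23 with TNF-α, so that introns held more reads than exons in both libraries without TGF-β. The log2 folds were 3.41 ± 0.33 in introns and 6.77 ± 0.22 in exons, and the difference was -3.36 ± 0.34 (adjusted p = 2.7e-19, edgeR). Lif, which also acts through gp130, went the other way, with 2046 intron reads with TGF-β and 2075 with both cytokines, against 136 in untreated cells and 183 with TNF-α, and log2 folds of 3.67 ± 0.32 in introns and 2.44 ± 0.16 in exons (difference adjusted p = 0.0003, edgeR). Pdgfa, a platelet-derived growth factor, had 3.54 and 3.65, and the Wnt ligands Wnt7a and Wnt9a had 3.55 and 4.10 in introns. Wnt4 had -1.71 in introns and -4.04 in exons. The difference was above 0 in 2 members, but in 6 without the untreated and in 6 without the TNF-α library.

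The difference was called above 0 in 2 of 14 integrins and below 0 in 1, and in 2 and 1 of 32 genes of the actin cytoskeleton. Over all genes tested it was called above 0 in 2.91% and below 0 in 1.19%. Under TMM it was above 0 in 3 and below 0 in 3 integrins, and in 3 and 5 actin genes, beside 679 and 623 of all 11324 genes. Of 14 integrins, introns rose in 5 and fell in 3, and exons rose in 8 and fell in 4, beside rises in 12.5% and falls in 5.49% of all genes in introns, and 22.6% and 17.0% in exons. The median log2 fold of the integrins was 0.33 in introns and 0.44 in exons, and that of the actin genes 0.32 and 0.42. Itga1, a collagen-binding chain that overlaps another listed gene, had -1.31 in introns and -3.73 in exons, and Itgb7, a chain known from lymphocytes, -0.72 and -2.22. Itga5, which pairs with Itgb1 as the fibronectin receptor, had 2.17 and 1.94, and Itgb1 1.44 and 1.53. Of 32 actin genes, introns rose in 9 and fell in 5, exons rose in 18 and fell in 6, and the median difference was 0.07. Cald1 (caldesmon) had 2.03 and 2.06, and Msn (moesin) 2.08 and 2.08. Palld (palladin) had 1189 intron reads with TGF-β and 1056 with both cytokines, against 1034 in untreated cells and 903 with TNF-α, a log2 fold of 0.17 in introns and 1.08 in exons. Actin genes that rose in introns numbered 5 without the TGF-β library, 6 without that of both cytokines, 16 without the untreated and 19 without the TNF-α library, and integrins 3 without either library with TGF-β.

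Among 27 genes of epithelial junctions and keratins, introns fell in 7 and rose in 2, and exons fell in 13 and rose in 1, with medians of -0.28 in introns and -0.28 in exons. Cdh1 (E-cadherin) had 615 intron reads with TGF-β and 496 with both cytokines, against 724 in untreated cells and 819 with TNF-α. Its log2 fold was -0.52 ± 0.29 in introns (adjusted p = 0.21, edgeR) and -0.98 ± 0.12 in exons, and the intron fold was called under TMM (-0.77, adjusted p = 0.00015). Krt19, a keratin of simple epithelia, had -1.24 and -1.68. Krt7, a keratin of the same kind, had 2444 intron reads with TGF-β and 2066 with both cytokines, against 1206 in untreated cells and 1067 with TNF-α, a log2 fold of 0.95 ± 0.28 in introns with -0.08 ± 0.13 in exons. Under TMM introns fell in 13 members, and with 1 library left out in 5 (without either library with TGF-β), 11 (without the untreated) and 10 (without the TNF-α library).

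Lineage transcription factors fell in introns in 6 of 18 members and in exons in 9, and rose in 2 and 1. Nkx2-1, the lung lineage factor, had 0 intron reads with TGF-β and 3 with both cytokines, against 43 in untreated cells and 39 with TNF-α, a ratio of 0.0356 (0.00719 to 0.108). Cdx2, an intestinal factor, had log2 folds of -3.57 in introns and -3.02 in exons. The difference was called above 0 in 2 members, and in 0 without either library with TGF-β.

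Of 14 EMT transcription and chromatin factors, introns rose in 4 and fell in none, and exons rose in 4 and fell in 2. Over all genes tested, introns rose in 12.5% and fell in 5.49%, and exons rose in 22.6% and fell in 17.0%. The exon counts of the list were thus near the shares of all genes. Zeb1, a repressor of E-cadherin, had 319 intron reads with TGF-β and 295 with both cytokines, against 85 in untreated cells and 111 with TNF-α, and log2 folds of 1.62 and 1.25. Its relative Zeb2 had 1.29 ± 0.31 in introns and 2.24 ± 0.16 in exons, a difference of -0.95 ± 0.29 (adjusted p = 0.03, edgeR). No gene of the list was called below 0 for the difference with unique reads (13 tested) or without either library with TGF-β, and Zeb2 overlaps the antisense transcript Zeb2os, which is not among the listed genes. Hmga2, an architectural chromatin protein, had 1.32 and 1.25, and Snai2 1.83 in introns from 27 and 15 reads with TGF-β and both cytokines, against 5 in untreated cells and 6 with TNF-α. Introns rose in 8 of the 14 without the TNF-α library. Of 18 Yap, Taz and Tead genes, introns rose in 7 and fell in 1, exons rose in 12 and fell in 1, and the difference was called in none (6 above and 2 below 0 without the TNF-α library, and 2 below 0 under TMM). Over all genes tested the difference was called above 0 in 2.91% and below 0 in 1.19%, so none of 18 is near these shares. Ankrd1, a target of Yap, had 2.42 and 3.16, and Tead3 1.27 and 1.12. Introns of these genes rose in 14 without the TNF-α library, and exons in 7 without the TGF-β library.

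Genes of RNA processing had intron medians above that of all genes in the fit. Introns rose in fewer than the 12.5% of all genes tested in each list except the regulators of alternative splicing. The intron medians were higher for TGF-β over untreated cells than for both cytokines over TNF-α: 0.93 and 0.21 for regulators of alternative splicing, 0.60 and 0.06 for genes with detained introns, 0.62 and 0.19 for the core spliceosome and 0.60 and 0.25 for RNA export, exosome and decay genes, against 0.44 and 0.09 over all genes. With both cytokines over TNF-α the median of the genes with detained introns thus lay below that of all genes. Among 19 regulators of alternative splicing the median log2 fold was 0.64 in introns and 0.18 in exons, and introns rose in 5 and exons in 5. Ptbp3, a polypyrimidine tract-binding protein, had 359 intron reads with TGF-β and 332 with both cytokines, against 106 in untreated cells and 255 with TNF-α, a log2 fold of 1.01 in introns and 0.19 in exons. Khdrbs1 (Sam68) had 836 and 797 with TGF-β and both cytokines, against 362 in untreated cells and 490 with TNF-α, with 0.91 in introns and 0.11 in exons. For both genes the untreated library was the lowest. Esrp2, an epithelial splicing regulator that overlaps another listed gene, had -0.56 in introns (adjusted p = 0.17, edgeR) and -0.72 in exons, and Esrp1 did not meet the read minimum.

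SR proteins, Clk kinases and other genes with detained introns, whose transcripts can wait in the nucleus with an intron in place, rose in introns in 3 of 42 and fell in none. Srsf1 had 905 intron reads with TGF-β and 953 with both cytokines, against 370 in untreated cells and 436 with TNF-α, a log2 fold of 1.17 ± 0.29 in introns and 0.34 ± 0.13 in exons. Nktr, a cyclophilin of nuclear speckles, had 2601 and 2263 with TGF-β and both cytokines, against 818 in untreated cells and 2161 with TNF-α, so that only the untreated library was low. Introns rose in 4 of 41 core spliceosome genes, U2surp, Snrpd1 and Snrpd3 among them, and in 2 of 31 genes of RNA export, the exosome and nonsense-mediated decay. The exons of the last list rose in 10, beside 22.6% of all genes tested. For the genes with detained introns, the spliceosome and RNA export, the share of intron rises lay below the 12.5% of all genes tested. For the regulators of alternative splicing, with 5 of 19, it lay above. Thoc6, a subunit of the TREX export complex that overlaps another listed gene, had 1.40 in introns and 0.57 in exons. In these lists the introns of 0 regulators, 0 or 1 genes with detained introns, 0 spliceosome genes and 1 export gene rose without either library with TGF-β, against 15, 32, 27 and 24 without the TNF-α library. Exons of the regulators rose in 1 to 13 and those of the export genes in 1 to 18 as 1 library was left out.

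DNA replication and mitosis genes rose in introns in 7 of 38 and in exons in 12, and none fell, beside rises in 12.5% of all genes tested in introns and 22.6% in exons. The median log2 fold was 0.45 in introns and 0.20 in exons, against 0.27 and 0.07 over all genes. Tyms (thymidylate synthase) had 249 intron reads with TGF-β and 170 with both cytokines, against 74 in untreated cells and 74 with TNF-α, a log2 fold of 1.44 ± 0.32 in introns and 0.30 ± 0.15 in exons (difference adjusted p = 0.0041, edgeR). Ccne1 (cyclin E1) had 1.39 and 1.07. Introns of these genes rose in 1 without either library with TGF-β, 16 without the untreated and 25 without the TNF-α library, and their exons in 5 and 4, 17 and 19. Of 20 AP-1 and immediate early genes, introns rose in 7 and fell in 2, and exons rose in 8 and fell in 4. Fosb had 4.03 and 4.97, and Fos -2.53 and -2.80, both subunits of AP-1. With 1 library left out, introns of this list rose in 4 to 12. Of 23 NF-κB subunits and targets, introns rose in 2, Tnfaip3 (1.52) and Traf3 (1.08), both known to restrain NF-κB signalling, and fell in none, with 5 falls under TMM, 8 falls without the untreated library and 12 rises without the TNF-α library. The share of all genes tested that rose in introns was 12.5%, and the median intron fold of the NF-κB list was 0.21 against 0.27. Tnfrsf1b, a receptor of TNF-α, had 0.66 in introns and -0.59 in exons. Tnfaip3 had 511 intron reads with TGF-β and 525 with both cytokines, against 110 in untreated cells and 273 with TNF-α.

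Cytosolic ribosomal protein genes were, with reads scaled to mapped reads, the only list with medians on opposite sides of 0 in introns and exons (under TMM the NF-κB list, at -0.04 and 0.01, was another). Of 36 genes, exons fell in 14 and rose in none, introns rose in 1 and fell in none, and the difference was called above 0 in 11. Over all genes tested, exons fell in 17.0%, introns rose in 12.5% and the difference was called above 0 in 2.91%. The median log2 fold was 0.28 in introns, close to the 0.27 of all genes, and -0.28 in exons, against 0.07, and under TMM it was 0.03 and -0.34. In 35 of the 36, the intron fold was above the exon fold both for TGF-β over untreated cells and for both cytokines over TNF-α, against 48.3% of all genes. The median difference was 0.60 for TGF-β over untreated cells and 0.49 for both cytokines over TNF-α, against 0.36 and 0.03 over all genes, so unlike the general shift it was nearly as large without the untreated library. Rps24 had 1768 intron reads with TGF-β and 1679 with both cytokines, against 591 in untreated cells and 904 with TNF-α. Its exons had 36983 and 36435 reads with TGF-β and both cytokines, against 41775 in untreated cells and 45306 with TNF-α, a difference in log2 fold of 1.48 ± 0.22 (adjusted p = 3.8e-09, edgeR).

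Rps9 had 819 intron reads with TGF-β and 917 with both cytokines, against 508 in untreated cells and 643 with TNF-α, with a difference of 0.94, and Rps3 0.90. The remaining 8 of the 11, Rpl3, Rpl4, Rpl5, Rpl7, Rpl19, Rps4x, Rps14 and Rps19, had differences of 0.64 to 0.74. With unique reads 9 of 34 ribosomal protein genes were called, under TMM 13 of 36 above and 1 below 0, and with limma on the log2 ratio 3 of 36. Exons fell in 28 under TMM and in 20 with DESeq2. Without the TGF-β library the difference was called in 2, without that of both cytokines in 1, without the untreated library in 26 and without the TNF-α library in 32, and exons fell in 1, 5, 23 and 27. Ribosomal protein genes have many processed pseudogenes, and their introns hold snoRNA genes, so that reads may be shared with copies elsewhere.

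Genes of cholesterol and fatty acid synthesis fell in exons in 21 of 28 and rose in 1, while introns fell in 2 and rose in none. Over all genes tested, exons fell in 17.0% and introns in 5.49%. The median log2 fold of the list was -0.58 in exons and -0.16 in introns. The difference was called in none, which is near the 2.91% above and 1.19% below 0 over all genes. Lss, which closes the sterol ring, had 1414 intron reads with TGF-β and 1092 with both cytokines, against 2334 in untreated cells and 2587 with TNF-α, and log2 folds of -1.02 ± 0.28 in introns and -1.06 ± 0.14 in exons. Hmgcs1 (-0.52 in introns and -0.84 in exons), an early enzyme of the pathway named after its values were seen, fell in exons. The number of intron falls was 13 under TMM, 12 without the untreated library, 11 without the TNF-α library and 0 without either library with TGF-β. The difference was called above 0 in 3 genes under TMM, 5 with TGF-β as the only term, 4 without the untreated library and 21 without the TNF-α library.

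**Figure D5:**
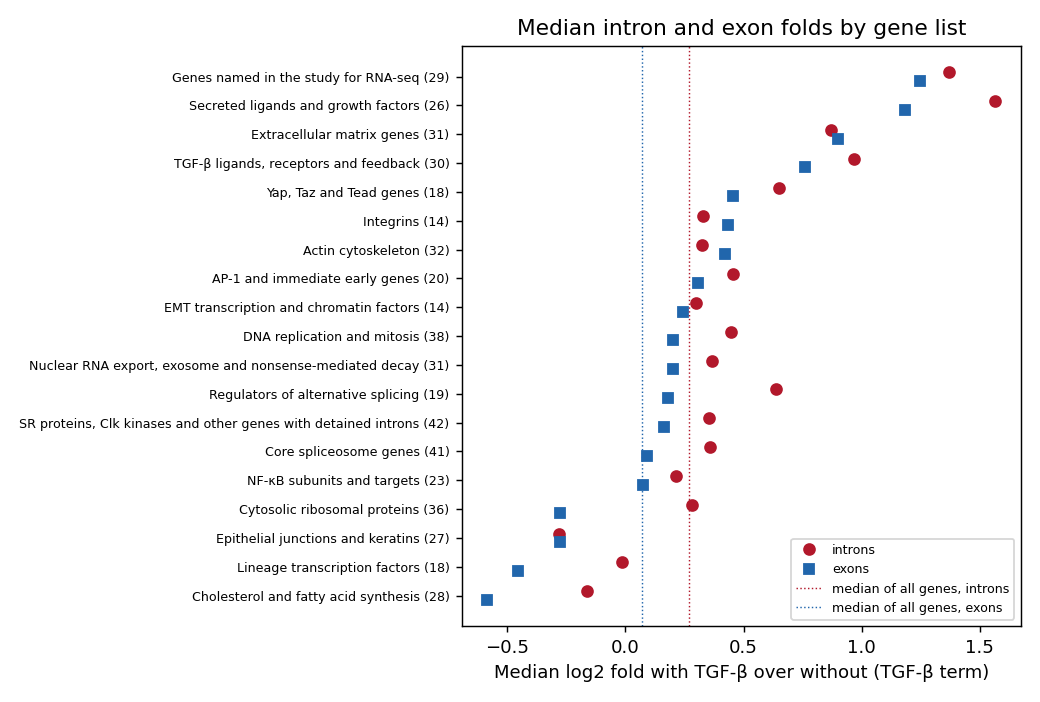
Median log2 fold of the TGF-β term in introns (red circles) and exons (blue squares) for 19 gene lists, with the number of genes tested in parentheses and dotted lines at the medians of all genes (0.27 in introns, 0.07 in exons). Circles and squares of the ribosomal protein list lie on opposite sides of 0 (0.28 and -0.28), and matrix, integrin and actin genes have the exon median slightly above the intron median.

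Introns of 3 genes whose alternative splicing the study examined were not called. Cd44, the hyaluronan receptor, had 2685 intron reads with TGF-β and 2277 with both cytokines, against 1573 in untreated cells and 2448 with TNF-α, a log2 fold of 0.29 ± 0.27 (adjusted p = 0.49, edgeR). Tjp1 (ZO-1, of tight junctions) had 615 and 411 with TGF-β and both cytokines, against 509 in untreated cells and 707 with TNF-α, a log2 fold of -0.29 ± 0.29 (adjusted p = 0.53, edgeR). Cttn (cortactin) had 3967 intron reads with TGF-β and 3437 with both cytokines, against 2308 in untreated cells and 2400 with TNF-α, and although the groups did not overlap its log2 fold of 0.61 ± 0.27 was not called (adjusted p = 0.094, edgeR). Exon inclusion was not measured here, since intron reads are summed over a gene. The calls of Tjp1 and Cttn depended on the setting, with -0.55 (adjusted p = 0.014) for Tjp1 under TMM and 0.61 (adjusted p = 0.038) for Cttn with TGF-β as the only term, and all 3 genes were called with at least 1 of the libraries left out. Of 29 genes that the study names for RNA-seq, introns rose in 20 and fell in 1, a list chosen on these samples and so no independent evidence.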

How the data were processed

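RNA of 4 CMT64 cultures was enriched with oligo(dT) beads and sequenced on an Illumina HiSeq. The authors mapped reads to the mouse genome (mm10, per the submitters' processing notes) in CLC Genomics Workbench, whose version, annotation release and strand setting are not given in the sources used here. The deposited tables hold, per gene, counts of total and unique reads in exons, introns and exon junctions, with RPKM and TPM values that the authors derived from exon reads. RPKM was used only to recover the number of mapped reads, which scaled the counts here, and TPM was not used.

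Intron counts, exon counts and their difference (an interaction of read class and TGF-β) were fitted with edgeR 4.0.16 (quasi-likelihood) in R 4.3.3, with an additive term for each cytokine, leaving 1 residual degree of freedom for single classes. Benjamini-Hochberg adjustment ran over all 11324 genes. Standard errors were taken from the fold and its F statistic. Bounds take 3 reads over the 2 libraries of a group as the floor for 0 reads, and ratios carry 95% exact counting intervals, which cover counting error only. Named genes are the 10 highest and 10 lowest called intron folds, the 8 highest and 8 lowest called differences, up to 4 called members of each list with the largest intron fold, and genes fixed by name, all but the last free of overlap with a listed gene and moving the same way with and without TNF-α. The 11 genes of opposite direction and further called list members were named after their values were seen. Members and lists were chosen with earlier results of these data known. Alternatives were TMM, class totals, DESeq2 1.42.0, limma 3.58.1, unique reads, other minimums, TGF-β as the only term, genes without overlap, and each library left out. Overlaps were read from GENCODE M21 (GRCm38). Overlap with an unlisted gene did not keep a gene from being named and is not given for every named gene. Of 20 lists, that of snoRNA hosts and nuclear long non-coding RNAs had 0 genes in the tables. On simulated counts for 11324 genes, a log2 change of 1 was called for 56% of changed genes in introns, 94% in exons and 33% for the difference, and a change of 2 for 96%, 99% and 96%. The simulated counts held no TNF-α effect, no shift of the untreated library and only the trended dispersion, with exons unchanged for the difference. These rates describe that setting and may be lower in the data. No library was dropped or imputed in the fit. Some genes are not reported here.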

Additional observations from a re-analysis of the deposited data

Results flagged for a closer look

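Some intron folds had opposite signs in the presence and absence of TNF-α, and the difference between these comparisons was not tested. For TGF-β over untreated cells and for both cytokines over TNF-α, the log2 intron fold was 0.66 and -0.074 in Cd44, 0.068 and -0.54 in Pglyrp1, 0.16 and -0.75 in Tjp1, and 0.44 and -0.36 in Itga11. The median over the NF-κB list was 0.37 and -0.21, and that over the lineage factors 0.034 and -0.15. In all 6 the fold over untreated cells was the higher, as was the median of all genes (0.44 and 0.09).

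Genes outside the exon minimum also held intron reads. Of 248 genes with fewer than 100 exon reads and at least 300 intron reads, 5 were over 4-fold higher with TGF-β and 5 over 4-fold lower. Igha, an immunoglobulin constant gene on chromosome 12 (113254830 to 113260236, minus strand, mm10) that the tables list with an exon length of 0, had 2578 intron reads with TGF-β and 2047 with both cytokines, against 2 in untreated cells and 0 with TNF-α, a ratio of 2249.8 (622 to 18583 by counting error). Skap1, an adaptor of T-cell signalling, had 717 with TGF-β and 869 with both cytokines, against 22 in untreated cells and 22 with TNF-α, a ratio of 35.1 (26.0 to 48.5). Trbc1, a T-cell receptor constant gene also listed with an exon length of 0, had 238 and 194 with TGF-β and both cytokines, against 4 in untreated cells and 0 with TNF-α. With no exon listed, every read on Igha and Trbc1 was counted as an intron read, so these counts do not separate introns from exons. Mctp1, a C2-domain membrane protein, had 249 and 235 with TGF-β and both cytokines, against 42 in untreated cells and 40 with TNF-α. Lrrd1, which overlaps another listed gene, had 445 and 310 with TGF-β and both cytokines, against 60 in untreated cells and 78 with TNF-α.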

How the results depend on the processing

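Counts of called genes moved with scaling, overlap and single libraries. Calls in introns (2038) became 3172 with class totals and 1014 without genes overlapping any other annotated exon, an alternative added after seeing the data that tests fewer genes, and 893 to 6320 with 1 library left out. Calls in exons (4485) became 2217 without such overlap and 2627 to 6798 with 1 library left out. Calls of the difference (464) became 1302 under TMM, 878 with class totals, 1034 with TGF-β as the only term, 973 with that term under TMM (added), 192 without overlap and 169 to 4224 with 1 library left out. Genes with the same direction in introns and exons (1747) became 881 without overlap and 812 to 4295 with 1 library left out. Leaving out 1 library under TMM (added) gave 1478 to 5038 calls in introns (3460 without the untreated library), 2563 to 6689 in exons (2582 without that of both cytokines), 370 to 1925 for the difference (1107 without the untreated library), and up to 3870 genes with the same direction. The fits with 1 library left out have TGF-β as the only term, and the lone library of a group is assumed to vary like the others. The share difference was 0.18 to 1.61 points with 1 library left out and 0.85 to 1.03 under the other alternatives. Of 52 results for single genes, 34 kept their direction and their side of the threshold under every alternative run, and of 912 alternative values 41 lost a call, 38 gained a call and 0 turned direction. No paired analysis was possible because each treatment had 1 library and no replicate numbers to pair. The TNF-α term of the fits compares libraries at the same TNF-α level, and without it calls were 2135 in introns, 4335 in exons and 1034 for the difference. Depth limits genes with few intron reads, and the 2-library groups limit every p-value.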
